A study of Schizosaccharomyces pombe with 12 samples.

Results

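Transcripts of the fission yeast Schizosaccharomyces pombe were compared between a strain that carries asp1-H397A, ssu72-C13S and a deletion of aps1, called the triple mutant here, and a strain that carries ssu72-C13S alone. The comparison takes 6 of the 12 libraries of the series, 3 of each genotype, and covers all 6189 genes that passed a filter on low counts, of 6986 in the table. Both genotypes hold the ssu72-C13S allele, so what differs between them is asp1-H397A together with the loss of aps1, and the effects of these changes cannot be told apart in this contrast. The other 6 libraries, of an asp1-H397A strain and of the wild type (WT), were used to ask how far the change depended on the background. Cultures were in log phase at 30 °C, growing vegetatively in YES, which is a rich medium made with yeast extract. Each genotype is represented by 1 strain number, and the labels describe its 3 libraries as replicate experiments without saying whether the cultures were separate, so the p-values measure only the spread between these libraries. Poly(A)+ RNA was sequenced with a kit that keeps the strand.

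Inositol pyrophosphates are inositol phosphates that carry a diphosphate group and act as signals of the phosphate status of the cell. Asp1 is an enzyme with a kinase domain that makes them and a pyrophosphatase domain, changed by H397A, that removes them, while Aps1 is a separate pyrophosphatase of the Nudix family. Ssu72 belongs to the cleavage and polyadenylation machinery and takes phosphates off the carboxy-terminal domain (CTD) of RNA polymerase II; C13S changes its active site. In this yeast the phosphate acquisition genes pho1, pho84 and tgp1 are known to be repressed in phosphate-rich medium by transcription of a long non-coding RNA that starts upstream of each of them and runs into its promoter.

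Library totals were 23115806 to 27438830 counts in the triple mutant and 25535699 to 27072294 in ssu72-C13S, at which a gene with no counts could still have 3, equal to 0.109 to 0.130 CPM and 0.111 to 0.117 CPM, where CPM are counts per 1000000 counts of the library. These limits cover counting error only. Levels below are CPM scaled by TMM factors, which correct for differences in composition between libraries and were 0.847 to 0.948 in the triple mutant and 1.08 to 1.09 in ssu72-C13S. Non-coding RNAs took 1.07% to 1.16% of counts in the triple mutant and 1.37% to 1.40% in ssu72-C13S, and ribosomal RNA 0.0036% to 0.0056% and 0.0037% to 0.0043%. Triple mutant replicate 1 stood apart from its replicates. Its log2 deviations from the mean of its group rose with the share of A in the transcripts, by 0.407 per 10 percentage points of A, against −0.209 and −0.198 in the others and −0.017 to 0.0293 in the ssu72-C13S libraries. In the other pair of genotypes asp1-H397A replicate 3 had a slope of 0.514. Whether base composition takes part in any result was not tested, and counts are therefore given also without triple mutant replicate 1 and with the trend on A content removed. The trend removed was that of each library against the mean of all libraries of the series. Its removal thus also takes out any A content trend between the genotypes, and does not adjust replicate 1 alone.

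The altered genes were looked at first. The aps1 gene (SPAC13G6.14) stood at 37.8, 41.2 and 37.5 CPM in the triple mutant, against 77.03, 79.4 and 77.3 CPM in ssu72-C13S. All triple mutant libraries lay below all ssu72-C13S libraries (log2 −1.004, SE 0.0705, adjusted p 5.3e-08; here and below, adjusted p is Benjamini-Hochberg adjusted from the quasi-likelihood test of edgeR), but 895, 958 and 758 counts were still assigned to the deleted gene, which the counts alone cannot place along it. The non-coding RNA SPNCRNA.620, which the annotation sets on the strand opposite aps1, had 295, 191 and 201 counts in the triple mutant and 3, 6 and 12 in ssu72-C13S. At 12.5, 8.22 and 9.94 CPM in the triple mutant, against 0.103, 0.217 and 0.432 CPM in ssu72-C13S, its groups did not overlap and its log2 fold change was 5.33 (adjusted p 8.47e-09), or 5.97 without ssu72-C13S replicate 3. How the counting treated strand is not given in the sources used here, so reads of aps1 and of SPNCRNA.620 cannot be told apart with certainty.

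The asp1 gene (SPCC1672.06c) was higher where it carries the H397A allele, at 63.5, 64.01 and 63.8 CPM in the triple mutant, against 30.4, 32.4 and 31.2 CPM in ssu72-C13S (log2 1.02, SE 0.0648, adjusted p 1.97e-08). SPNCRNA.1144, annotated opposite asp1, stood at 17.9, 20.6 and 16.3 CPM in the triple mutant, against 0.858, 0.652 and 0.576 CPM in ssu72-C13S, a fold of 26 (log2 4.70, SE 0.17, adjusted p 1.5e-10). Here too the groups did not overlap, and the strand reservation made for aps1 applies. The ssu72 gene (SPAC3G9.04), which carries C13S in both genotypes, was higher too, at 29, 23.6 and 21.9 CPM in the triple mutant, against 10.02, 10.04 and 11.5 CPM in ssu72-C13S (log2 1.24, SE 0.147, adjusted p 8.46e-06). Its neighbour spa2, a gene of cell polarity, stood at 299, 331 and 329 CPM in the triple mutant, against 84.1, 95.01 and 83.01 CPM in ssu72-C13S. With 3.66 times the ssu72-C13S level (log2 1.87, SE 0.0827, adjusted p 9.46e-10) it changed more than any other protein-coding gene among the 3 nearest on each side of asp1, aps1 and ssu72. Of those 18 neighbours 15 were tested and 9 passed the threshold, a share near the 56.3% of all genes tested. Chitin synthase chs1, near aps1, was higher (log2 0.94), as were utp21 (0.34) and yrs1 (0.39) next to asp1, while gud1 was lower (−0.41), and rcn1 next to aps1 (0.14) did not pass the threshold.

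Much of the transcriptome was at another level in the triple mutant than in ssu72-C13S. Of 6189 genes tested, 3483 differed (56.3%) at an adjusted p under 0.05, 1782 higher in the triple mutant (28.8%) and 1701 lower (27.5%). A change of 2-fold or more was met by 250 higher genes (4.04%) and 515 lower genes (8.32%). Every triple mutant library lay above every ssu72-C13S library for 34.3% of the genes and below for 32.5%. The median log2 fold change over all genes tested was 0.0127. Upper-quartile scaling in place of TMM left a similar total of 3510 genes but shifted the median to −0.0772 and the share of higher genes among those called to 40.1%, against 51.2% under TMM, with 1406 higher and 2104 lower. Without triple mutant replicate 1 there were 3451 genes, 1708 higher and 1743 lower, and with the trend on A content removed 4329, 2116 higher and 2213 lower. In the lowest of 5 equal groups of genes by A content 119 were higher and 95 lower by 2-fold or more. In the highest group these numbers were 31 and 146. What lay behind this gradient was not tested.

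Protein-coding and non-coding genes differed in direction. Among 4989 protein-coding genes tested 1605 rose and 1147 fell, and at 2-fold or more 180 rose and 189 fell. Among 1118 non-coding RNA genes tested, of 1524 listed by identifier, 156 rose and 527 fell, with a median log2 fold change of −0.41 and 307 lower by 2-fold or more. These were 14.0% higher and 47.1% lower, beside 28.8% and 27.5% of all genes tested. The non-coding RNAs were also low: in the lowest of 5 equal groups of genes by level, at a median of 2.1 CPM, the median log2 fold change was −0.47 and 362 genes were lower by 2-fold or more, against 0.13 and 30 genes in the highest group. Of the non-coding RNAs tested, 913 have an annotated gene on the opposite strand, of which 120 rose and 449 fell, and 156 overlap no annotated gene, of which 25 rose and 59 fell. With a minimum mean count of 50, which drops many of them, 346 non-coding RNAs fell.

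Phosphate acquisition genes held the 2 largest fold increases of all genes tested, in tgp1 and pho1. Of the 6 genes of the phosphate list 3 rose and 2 fell. The share of counts that pho1, pho84 and tgp1 took together was 2.36%, 2.62% and 2.66% in the triple mutant libraries and 0.0648%, 0.0677% and 0.0626% in the ssu72-C13S libraries. The secreted acid phosphatase gene pho1 (SPBP4G3.02) stood at 19160, 24030 and 23620 CPM in the triple mutant, against 372, 394 and 358 CPM in ssu72-C13S. It was the gene with the most counts in each triple mutant library, and its level averaged 22270 ± 2699 CPM in the triple mutant and 375 ± 18.1 CPM in ssu72-C13S (SD, n = 3 each), a fold of 59.5 (log2 5.89, SE 0.135, adjusted p 8.56e-13). In bulk RNA of a culture, fewer cells that hold a transcript and less of it per cell cannot be told apart. The high-affinity phosphate transporter gene pho84 (SPBC8E4.01c) had 4961, 6083 and 5959 CPM in the triple mutant, against 218, 220.1 and 206 CPM in ssu72-C13S. That is 26.4 times as much (log2 4.72, SE 0.113, adjusted p 1.34e-12), with no overlap of the groups. The gene of the glycerophosphodiester transporter Tgp1 (SPBC1271.09) was low in ssu72-C13S and showed the largest fold of all, at 734, 827 and 768 CPM in the triple mutant, against 11.8, 13.6 and 11.2 CPM in ssu72-C13S. Its fold was 63.6 (log2 5.99, SE 0.102, adjusted p 8e-14), and the annotation sets SPBC1271.10c on its opposite strand.

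The remaining members of the phosphate list moved little or the other way. prt2 (SPBC8E4.02c), the non-coding transcript upstream of pho84 that overlaps it on the same strand in the annotation, was lower, at 19.3, 18.9 and 19.9 CPM in the triple mutant, against 34.1, 34.8 and 33.1 CPM in ssu72-C13S (log2 −0.81, SE 0.0755, adjusted p 8.54e-07). Reads in the shared stretch could have been given to either gene or to neither. The kinase gene csk1, whose loss is known to raise pho1 expression, was lower at 20.9 CPM in the triple mutant, against 30.04 CPM in ssu72-C13S (log2 −0.52, adjusted p 0.00173; chosen after its values were seen). The gene of Pho7, the transcription factor that activates the regulon, had 159, 186.3 and 193 CPM in the triple mutant, against 198, 193 and 196 CPM in ssu72-C13S. Its groups touched without overlapping, and the difference missed the threshold (log2 −0.13, SE 0.0764, adjusted p 0.178). It did pass under upper-quartile scaling (log2 −0.22, adjusted p 0.0147) and with the A content trend removed (log2 −0.17, adjusted p 0.00595). Without triple mutant replicate 1 the log2 fold changes were 5.99 for pho1, 4.81 for pho84 and 6.03 for tgp1, and with the A content trend removed 5.71, 4.57 and 5.77.

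**Figure D1:**
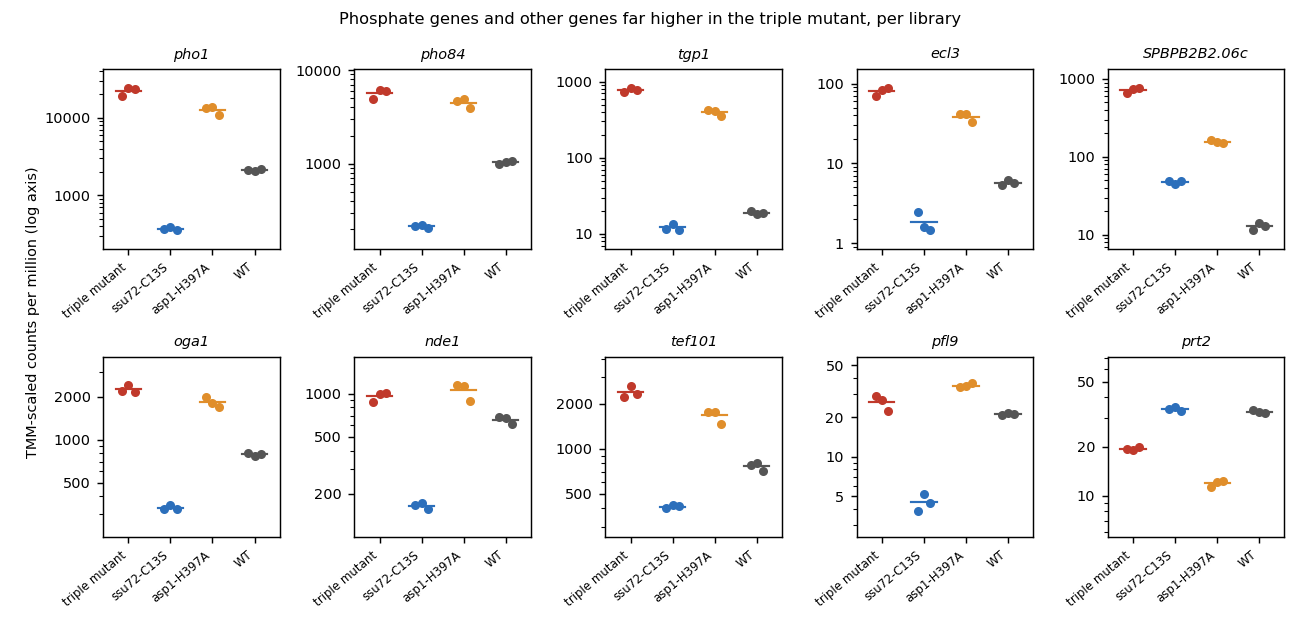
Level of 10 genes in each library, in TMM-scaled CPM on a log axis. Points are libraries and bars are group means, n = 3 for each of the triple mutant, ssu72-C13S, asp1-H397A and WT. For all genes but prt2 the triple mutant libraries lie above the ssu72-C13S libraries, by folds of 5.80 (tef101) to 63.6 (tgp1), and for prt2 they lie below (0.57).

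Other genes with large increases included one near pho1 and pho84. ecl3 (SPBC8E4.12c), a gene of a family known for extending chronological lifespan when overexpressed, stood at 70.3, 84.5 and 87.3 CPM in the triple mutant, against 2.47, 1.59 and 1.48 CPM in ssu72-C13S. It was barely counted in ssu72-C13S, with 72, 44 and 41 counts per library, and its fold was 43.4 (log2 5.44, SE 0.174, adjusted p 3.73e-11). SPBPB2B2.06c, annotated by RefSeq as a phosphoprotein phosphatase, had 658, 735 and 763 CPM in the triple mutant, against 49.3, 45.2 and 49.03 CPM in ssu72-C13S. Its log2 fold change was 3.91 (adjusted p 6.35e-13). In annotation order pho1, pho84, ecl3 and SPBPB2B2.06c all lie among the outermost 40 genes of an arm of chromosome II. Of all 90 genes tested among the outermost 40 of the arms of chromosomes I and II, 22 rose and 39 fell (24.4% and 43.3%, beside 28.8% and 27.5% of all genes).

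Further genes among the 12 largest increases serve translation, respiration and adhesion. oga1 (SPBC16A3.08c) stood at 2197, 2427 and 2178 CPM in the triple mutant, against 325, 347 and 327 CPM in ssu72-C13S (log2 2.77, adjusted p 1.33e-11). tef101, which encodes translation elongation factor eEF1A, had 2221, 2628 and 2305 CPM in the triple mutant, against 401, 421 and 411 CPM in ssu72-C13S. With a log2 fold change of 2.54 it was 5.8 times higher, although other copies of this gene are nearly identical and the counting could have split their reads. nde1, the gene of an external NADH dehydrogenase of mitochondria, had 873, 992 and 1014 CPM in the triple mutant, against 168, 171 and 157 CPM in ssu72-C13S (log2 2.54, adjusted p 3.55e-10). pfl9, a gene of a cell surface adhesin of the flocculin kind, had 28.8, 26.9 and 22.4 CPM in the triple mutant, against 3.88, 5.18 and 4.43 CPM in ssu72-C13S (log2 2.54, adjusted p 1.73e-09). The non-coding RNA SPNCRNA.944 stood at 12.1, 17.5 and 14.6 CPM in the triple mutant, against 1.41, 1.85 and 1.58 CPM in ssu72-C13S (log2 3.19). For each of these genes every triple mutant library lay above every ssu72-C13S library. The annotation sets other genes opposite tef101, nde1 and SPNCRNA.944, so the strand reservation applies to them. It applies equally to other genes named in this report. Of all genes tested, 3580 overlap an annotated gene on the opposite strand, among them ssa1, gar2 and mbx2, and some, such as hsp9, overlap one on the same strand.

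The nuclear genes of the respiratory chain and ATP synthase were higher almost without exception. Of 24 tested, of 25 listed, 23 rose and 0 fell (95.8% higher, beside 28.8% of all genes tested), 13 of them by 2-fold or more, with a median log2 fold change of 1.08 beside 0.0127 for all genes. The summed level of the list was 10608 to 12726 CPM in the triple mutant libraries and 5563 to 5738 CPM in the ssu72-C13S libraries. On this TMM scale all genes tested summed to 1054771 to 1181182 CPM and 919128 to 928834 CPM, so such sums are not shares of the counts. Cytochrome c1, gene cyt1, stood at 734, 839 and 889 CPM in the triple mutant, against 178, 170 and 167 CPM in ssu72-C13S. It had the largest change in the list (log2 2.26, SE 0.0988, adjusted p 8.53e-10), its groups lying far apart. The Rieske iron-sulfur protein gene rip1 had 473, 580.3 and 615 CPM in the triple mutant, against 154, 154 and 154 CPM in ssu72-C13S (log2 1.85). Both belong to complex III, as do qcr7 (log2 1.77) and qcr2 (log2 1.67). Outside complex III, cytochrome c gene cyc1 had 1021 CPM in the triple mutant, against 353 CPM in ssu72-C13S (log2 1.53), and atp1, for the alpha subunit of ATP synthase, 819 CPM in the triple mutant, against 304 CPM in ssu72-C13S (log2 1.43); cyc1 and atp1 were chosen after their values were seen. The succinate dehydrogenase gene sdh2 was the member that did not pass, at 496, 592 and 603 CPM in the triple mutant, against 526, 511 and 503 CPM in ssu72-C13S. Its groups overlapped (log2 0.13, adjusted p 0.176), and without triple mutant replicate 1 it passed (log2 0.22, adjusted p 0.0183). Under the alternatives 23 to 24 members rose. Of the 36 genes of the mitochondrial genome listed by identifier, 4 passed the filter on low counts in this poly(A)-selected RNA, and 1 rose; 0 did under upper-quartile scaling or without triple mutant replicate 1 or 3 or ssu72-C13S replicate 2 or 3.

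Genes of glycolysis and fermentation enzymes rose in part. Of 17 genes tested 10 rose and 1 fell (58.8% higher), with a median log2 fold change of 0.70, and 4 rose by 2-fold or more. The glyceraldehyde-3-phosphate dehydrogenase gene gpd3 had 1049, 1127 and 1222 CPM in the triple mutant, against 211, 225 and 210 CPM in ssu72-C13S (log2 2.40, SE 0.115, adjusted p 1.71e-09). The pyruvate decarboxylase gene pdc101, at the branch from glycolysis to ethanol, stood at 8367, 10110 and 9567 CPM in the triple mutant, against 2462, 2577 and 2499 CPM in ssu72-C13S. The groups did not overlap, and the fold was 3.72 (log2 1.90). Enolase gene eno101 averaged 8319 ± 380 CPM in the triple mutant and 2666 ± 96.5 CPM in ssu72-C13S (SD, n = 3 each), a log2 fold change of 1.64. Alcohol dehydrogenase gene adh1 averaged 10540 ± 978 CPM in the triple mutant and 5155 ± 130.4 CPM in ssu72-C13S, a log2 fold change of 1.03 that was 0.61 with the A content trend removed. Of the abundant members fba1 (log2 0.99) and tdh1 (log2 0.95), chosen after their values were seen, rose as well. The abundant members pyk1 and tpi1 did not pass the threshold, and their groups overlapped. pyk1 averaged 8958 CPM in the triple mutant, against 7876 CPM in ssu72-C13S (log2 0.19, adjusted p 0.127). tpi1 averaged 6199 CPM in the triple mutant, against 6061 CPM in ssu72-C13S (log2 0.03, adjusted p 0.80). With the A content trend removed 4 members fell in place of 1, and without triple mutant replicate 1, 2 did.

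Most ribosomal protein genes rose. All 138 cytosolic ribosomal protein genes listed were tested; 105 rose and 0 fell (76.1% higher), with a median log2 fold change of 0.34, 33 did not pass the threshold, and 18 rose by 2-fold or more, which 4.04% of all genes tested did. Their summed level was 213624 to 248096 CPM in the triple mutant libraries and 160469 to 164809 CPM in the ssu72-C13S libraries. The scaled sums over all genes tested, 1054771 to 1181182 CPM and 919128 to 928834 CPM, were also higher in the triple mutant. rpl1602, for a protein of the large subunit, stood at 2171, 2535 and 2245 CPM in the triple mutant, against 532, 558 and 569 CPM in ssu72-C13S (log2 2.07, SE 0.0921, adjusted p 1.02e-09). rps001, for a protein of the small subunit, had 1335, 1578 and 1437 CPM in the triple mutant, against 341, 358 and 354 CPM in ssu72-C13S (log2 2.05). These values and those of rps1002 (log2 1.90) and rpl401 (log2 1.75) are uncertain where the genes have near-identical copies between which the counting could split reads. rpl2301, a neighbour of ssu72, rose by less (log2 0.44). The count of higher members depended on the libraries, at 72 without triple mutant replicate 2, 101 without triple mutant replicate 1, 119 without triple mutant replicate 1 and asp1-H397A replicate 3, and 86 under upper-quartile scaling; 0 to 2 members fell.

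Ribosome biogenesis genes went the same way. Of 21 tested, of 22 listed, 17 rose and 0 fell (81.0% higher), with a median log2 fold change of 0.47. The nucleolin homologue gene gar2 stood at 976, 1059 and 911 CPM in the triple mutant, against 296, 303 and 305 CPM in ssu72-C13S, and its groups lay far apart (log2 1.71, SE 0.0632, adjusted p 1.73e-10). The fibrillarin gene fib1, whose product methylates ribosomal RNA, had 916, 1045 and 968 CPM in the triple mutant, against 310.4, 312 and 329 CPM in ssu72-C13S (log2 1.62). The RNA helicase gene dbp2 had a log2 fold change of 0.92. mak16, for a factor of the large subunit precursor, had 133, 93.3 and 81.2 CPM in the triple mutant, against 60.6, 61.4 and 58.6 CPM in ssu72-C13S. Triple mutant replicate 1 was highest there, and the log2 fold change of 0.77 became 0.54 without it. tif6, for a factor that holds the subunits apart, had overlapping groups at 403, 492 and 421 CPM in the triple mutant, against 484, 467 and 479 CPM in ssu72-C13S. Its difference was not called (log2 −0.12, adjusted p 0.25), although it was under upper-quartile scaling (log2 −0.21, adjusted p 0.0301).

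Stress genes were lower in the triple mutant. Of 21 core stress genes, which are known to be induced in many kinds of stress, 2 rose and 16 fell (76.2% lower, beside 27.5% of all genes tested), 10 of them by 2-fold or more, with a median log2 fold change of −0.99. The small heat shock protein gene hsp9 stood at 73.7, 72.7 and 75.95 CPM in the triple mutant, against 894, 822 and 886 CPM in ssu72-C13S. With 0.0855 of the ssu72-C13S level (log2 −3.55, SE 0.0678, adjusted p 1.9e-13) it fell most of the list. The glutathione S-transferase gene gst2 had 170, 198 and 157 CPM in the triple mutant, against 859, 861 and 829 CPM in ssu72-C13S (log2 −2.28). The sulfiredoxin gene srx1, of the peroxide response, had 15.98, 20.3 and 17.1 CPM in the triple mutant, against 100.2, 98.7 and 97.01 CPM in ssu72-C13S (log2 −2.47). In both genes the groups lay far apart. Catalase gene ctt1 (log2 −1.91) and the trehalose phosphate synthase gene tps1 (log2 −1.73), chosen after their values were seen, fell too. The 2 members that rose were the phosphatase gene ptc4 (log2 0.56) and the thioredoxin gene trx2 (log2 0.36), both named after their values were seen. Of the 12 largest decreases among genes at 5 CPM or more, rtc3, annotated as an SBDS family protein, had 21.7, 20.4 and 22.6 CPM in the triple mutant, against 254, 233 and 241 CPM in ssu72-C13S (log2 −3.49), and ddr48 had 4.23, 3.53 and 2.77 CPM in the triple mutant, against 32.7, 30.96 and 32.04 CPM in ssu72-C13S (log2 −3.17).

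Heat shock chaperone genes fell in part. Of 14 tested, of 15 listed, 1 rose and 9 fell (64.3% lower), 5 by 2-fold or more, with a median log2 fold change of −0.85. Ssa1, an Hsp70 chaperone, is encoded by ssa1, which stood at 31.3, 38.2 and 36.9 CPM in the triple mutant, against 252, 276 and 273 CPM in ssu72-C13S. Its fold was 0.133 (log2 −2.92, SE 0.0918, adjusted p 3.32e-11). ssa2, a far more abundant member of the list, averaged 5444 CPM in the triple mutant, against 5050 CPM in ssu72-C13S. The ssa2 groups overlapped, and the difference was not called (log2 0.11, adjusted p 0.403). The summed level of the list was 18009 to 21425 CPM in the triple mutant libraries and 21872 to 22309 CPM in the ssu72-C13S libraries. The small chaperone gene hsp16, which is also in the core stress list, had 37.03, 36.9 and 33.2 CPM in the triple mutant, against 180.5, 219 and 217 CPM in ssu72-C13S (log2 −2.52). The disaggregase gene hsp104 had 38.9, 35.1 and 38.9 CPM in the triple mutant, against 133, 140.5 and 155 CPM in ssu72-C13S, and its groups did not overlap (log2 −1.92). Its mitochondrial relative hsp78 had 61.2, 42.6 and 45.6 CPM in the triple mutant, against 130.3, 141 and 149 CPM in ssu72-C13S, with triple mutant replicate 1 the highest of its group (log2 −1.49, or −1.67 without that library). hsp90, for an abundant chaperone, fell by less, at 3253 CPM in the triple mutant, against 6016 CPM in ssu72-C13S (log2 −0.89; chosen after its values were seen). The member that rose was sks2, for a ribosome-associated Hsp70, at 6682 CPM in the triple mutant, against 2995 CPM in ssu72-C13S (log2 1.16; chosen after its values were seen). The Hsp40 gene mas5 fell short of the threshold (log2 −0.23, adjusted p 0.06), but passed under 5 alternatives, among them upper-quartile scaling (log2 −0.32, adjusted p 0.00627).

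**Figure D2:**
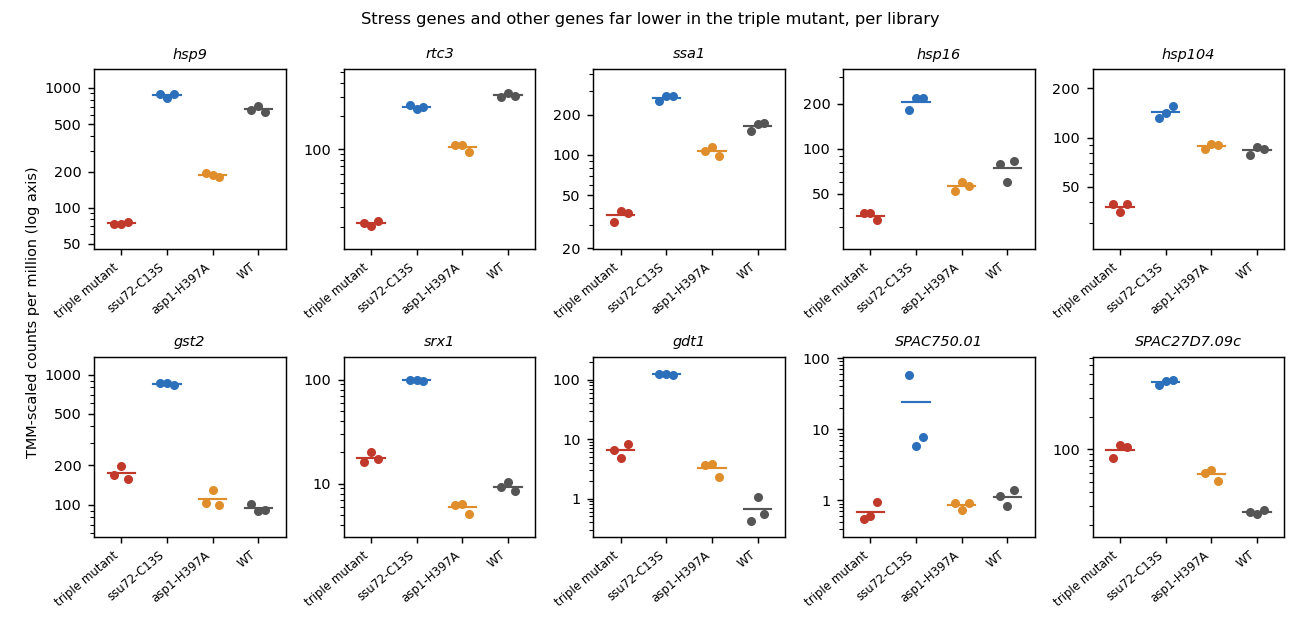
Level of 10 genes in each library, in TMM-scaled CPM on a log axis. Points are libraries and bars are group means, n = 3 for each of the triple mutant, ssu72-C13S, asp1-H397A and WT. In every panel the triple mutant libraries lie below the ssu72-C13S libraries, at 0.0289 (SPAC750.01) to 0.264 (hsp104) of their level, and for SPAC750.01 ssu72-C13S replicate 1 lies far above its replicates (57.8 CPM, against 5.91 and 7.92 CPM).

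Some of the largest decreases lay outside these lists. gdt1 (SPAC186.05c), annotated as GDT1-like, had 6.47, 4.74 and 8.31 CPM in the triple mutant, against 127, 125 and 119.9 CPM in ssu72-C13S. That is 0.0523 of the ssu72-C13S level (log2 −4.26, SE 0.212, adjusted p 2.18e-09). SPAC750.01, annotated as an aldo/keto reductase, stood at 0.549, 0.603 and 0.94 CPM in the triple mutant, against 57.8, 5.91 and 7.92 CPM in ssu72-C13S. ssu72-C13S replicate 1 set its size: the log2 fold change was −5.11 (SE 0.861) with that library and −3.32 (SE 0.244) without it. SPAC27D7.09c, of the But2 family, fell to 82.9, 108 and 105 CPM in the triple mutant, against 396, 428 and 435 CPM in ssu72-C13S (log2 −2.09). In the same cluster but1 fell (log2 −0.86), and SPAC27D7.11c, at 1027 CPM in the triple mutant, against 1099 CPM in ssu72-C13S, had overlapping groups (adjusted p 0.454), so that 2 of 3 tested members fell; with the A content trend removed 3 did.

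The non-coding RNAs among the 12 largest decreases were low in level in both genotypes, except SPNCRNA.863. SPNCRNA.1061 had 22, 18 and 33 counts in the triple mutant and 419, 402 and 414 in ssu72-C13S (log2 −3.73). SPNCRNA.1523 had 2.71, 3.19 and 3.12 CPM in the triple mutant, against 24.9, 24.2 and 23.5 CPM in ssu72-C13S (log2 −3.01). SPNCRNA.863 had 41.98, 24.8 and 27.99 CPM in the triple mutant, against 237, 261 and 257 CPM in ssu72-C13S, with triple mutant replicate 1 highest of its group (log2 −2.99, or −3.26 without it). SPNCRNA.1211 (log2 −3.16), SPNCRNA.1294 (log2 −3.12) and SPNCRNA.1298 (log2 −2.82) were lower too, and all of them have an annotated gene on the opposite strand. Of the Tf2 retrotransposons, whose copies are near identical so that reads of single elements are uncertain, 4 of 13 listed passed the filter on low counts and 3 fell.

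**Figure D3:**
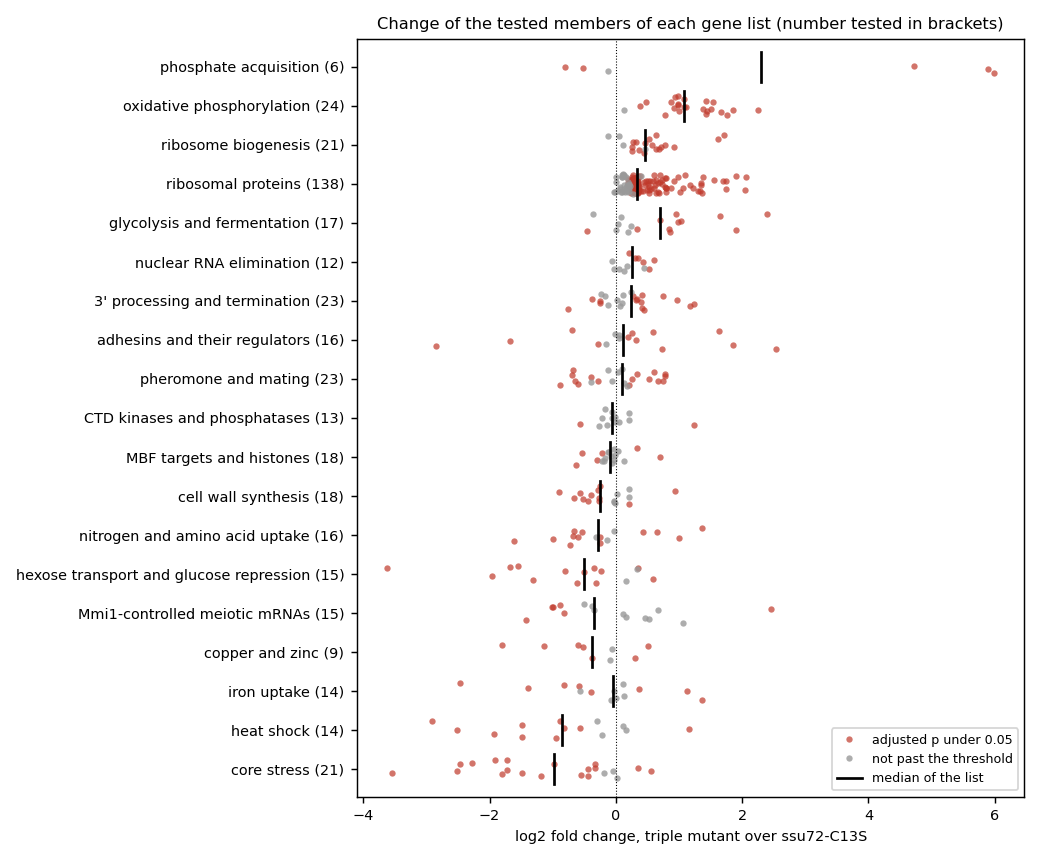
Log2 fold change, triple mutant over ssu72-C13S, of the tested members of 19 gene lists. Each point is a gene, coloured by whether it passed the threshold, the black bar is the median of the list, and the number tested stands in brackets; medians run from −0.99 (core stress) to 1.08 (oxidative phosphorylation), apart from 2.30 for the phosphate genes.

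Among the genes of RNA 3′ processing and termination, 11 of 23 rose and 4 fell (47.8% higher and 17.4% lower), with a median log2 fold change of 0.23. Next to ssu72 itself, the largest increases were in msi2, for an RNA-binding protein of the cleavage factor, at 96.97, 98.6 and 97.3 CPM in the triple mutant, against 45.5, 42.8 and 41.1 CPM in ssu72-C13S (log2 1.18, SE 0.0888, adjusted p 1.06e-07), and in seb1. Seb1 binds nascent RNA and the polymerase tail, and its gene stood at 159, 182 and 175 CPM in the triple mutant, against 87.2, 93.3 and 82.9 CPM in ssu72-C13S (log2 0.97). rna15, for a subunit of cleavage factor IA, had 234 CPM in the triple mutant, against 139 CPM in ssu72-C13S (log2 0.75; chosen after its values were seen). The members that fell were mpe1, at 39.8, 42.2 and 44.01 CPM in the triple mutant, against 73.2, 72.2 and 67.8 CPM in ssu72-C13S (log2 −0.76), pcf11 (log2 −0.37), pta1 (log2 −0.26) and cft1 (log2 −0.25), of which the last 3 were named after their values were seen. With the A content trend removed 7 members fell. The phosphatase gene dis2, for the other phosphatase of the same machinery, stood at 449, 518 and 514 CPM in the triple mutant, against 558, 553 and 552 CPM in ssu72-C13S and missed the threshold (log2 −0.17, adjusted p 0.0796), but passed under upper-quartile scaling (log2 −0.26, adjusted p 0.00454). Among 13 genes for kinases and phosphatases of the polymerase tail and Spt5, ssu72 rose, mcs6, the kinase of TFIIH, fell (log2 −0.57) and 11 did not pass the threshold; without triple mutant replicate 1, 4 fell.

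Genes of nuclear RNA elimination, which degrade meiotic and other transcripts in growing cells, were higher where they changed. Of 12 tested, of 13 listed, 6 rose and 0 fell, with a median log2 fold change of 0.26; under the alternatives 4 to 8 rose and 0 to 2 fell. The gene of Mmi1, which recognises meiotic transcripts, had 111, 123 and 118 CPM in the triple mutant, against 78.02, 76.9 and 76.02 CPM in ssu72-C13S (log2 0.61, SE 0.0829, adjusted p 3.15e-05). rmn1 (log2 0.52), iss10 (log2 0.43) and the exosome nuclease gene dis3 (log2 0.35) rose as well. The nuclear exosome nuclease gene rrp6 stood at 136, 95.05 and 86.5 CPM in the triple mutant, against 75.3, 78.01 and 79.1 CPM in ssu72-C13S. The first of these triple mutant values lay far above the others, and the difference missed the threshold (log2 0.45, adjusted p 0.0511). Without that library it was further from it (log2 0.23, adjusted p 0.25), while it passed under 8 of 16 alternatives, among them the removal of the A content trend (log2 0.46, adjusted p 7.94e-06) and leaving out triple mutant replicate 1 with asp1-H397A replicate 3 (log2 0.23, adjusted p 0.0138). Of the Mmi1-controlled meiotic mRNAs, 15 of 18 listed were tested, and 1 rose and 5 fell (6.67% and 33.3%). mug4 (log2 −1.01) and rec10 (log2 −0.89) were lower, and mcp7, the member that rose, had 7.06, 3.36 and 4.15 CPM in the triple mutant, against 0.755, 0.942 and 0.972 CPM in ssu72-C13S (log2 2.45; chosen after its values were seen). Of 15 heterochromatin and RNAi genes 3 rose and 3 fell (20.0% each way, below the 28.8% and 27.5% of all genes tested). The largest changes were rik1 (log2 −0.49) and ago1 (log2 −0.45), lower, and epe1 (log2 0.35), higher. Upper-quartile scaling gave 1 higher and 6 lower, and leaving out triple mutant replicate 1 gave 5 lower.

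Enzymes of inositol phosphates and polyphosphate made up another list, with 9 of 11 members in the table, all tested. Of these 5 rose and 2 fell (55.6% higher and 22.2% lower, beside 28.8% and 27.5% of all genes tested). Besides the altered asp1 and aps1, kcs1, for the other inositol pyrophosphate kinase, had 115, 130.5 and 125 CPM in the triple mutant, against 71.6, 75.9 and 70.2 CPM in ssu72-C13S (log2 0.77, SE 0.0581, adjusted p 1.09e-07). vtc4, for the catalytic subunit of the complex that makes polyphosphate in the vacuole membrane, stood at 164, 185 and 171 CPM in the triple mutant, against 90.9, 93.05 and 78.2 CPM in ssu72-C13S (log2 0.99). For both genes the groups did not overlap. vtc2 (log2 0.66) and siw14 (log2 0.41) rose and pqr1 fell (log2 −0.44), all named after their values were seen. ipk1, whose product makes the hexakisphosphate that the pathway starts from, was not called (log2 −0.13, adjusted p 0.168), but passed under upper-quartile scaling (log2 −0.22, adjusted p 0.014) and with the A content trend removed (log2 −0.17, adjusted p 0.00523).

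Nutrient transporters moved in both directions. Of 15 hexose transporter and glucose-repressed genes 2 rose and 11 fell (73.3% lower), with a median log2 fold change of −0.50. The high-affinity glucose transporter gene ght5 had 92.95, 102 and 109.5 CPM in the triple mutant, against 298, 325 and 272 CPM in ssu72-C13S (log2 −1.56, SE 0.0979, adjusted p 1.83e-08). Invertase gene inv1 (log2 −1.31) and ght4 (log2 −0.81) fell, and fbp1, for the gluconeogenic fructose-1,6-bisphosphatase, had 10.7, 10.2 and 10.7 CPM in the triple mutant, against 7.24, 6.92 and 6.95 CPM in ssu72-C13S (log2 0.58). Of 16 tested nitrogen and amino acid uptake genes 4 rose and 9 fell. The oxygenase-like gene isp7 fell to 59.1, 72.6 and 80.6 CPM in the triple mutant, against 215, 211 and 222 CPM in ssu72-C13S (log2 −1.61), and the permease gene isp5 was lower too (log2 −1.001). GABA transaminase gene uga1 (log2 1.36) and the oligopeptide transporter gene isp4 (log2 0.998) rose. Of 9 pyrimidine and uracil genes tested 5 rose and 0 fell (55.6% higher, beside 28.8% of all genes tested), with ura2 at log2 0.49 and ura5 at log2 0.36. The uracil-regulated gene urg1 had 666, 749.5 and 1040 CPM in the triple mutant, against 525, 504 and 359 CPM in ssu72-C13S (log2 0.82). The number higher was 3 under RLE and upper-quartile scaling, with DESeq2 and with the 6 libraries alone. It was also 3 without triple mutant replicate 2 or 3 or ssu72-C13S replicate 2 or 3.

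Of 14 iron genes tested 3 rose and 5 fell (21.4% and 35.7%, near the 28.8% and 27.5% of all genes tested). The ferric reductase gene frp1 stood at 4.69, 4.61 and 4.99 CPM in the triple mutant, against 26.4, 25.6 and 27.5 CPM in ssu72-C13S, a fold of 0.18 (log2 −2.47, SE 0.0954, adjusted p 2.72e-10). The genes of the iron permease Fip1 and the multicopper oxidase Fio1, which form the high-affinity uptake complex, went the other way. fip1 had 266, 381 and 310.2 CPM in the triple mutant, against 113, 114 and 143 CPM in ssu72-C13S (log2 1.37), and fio1 75.3, 98.5 and 75.3 CPM in the triple mutant, against 34.6, 36.2 and 42.6 CPM in ssu72-C13S (log2 1.13). Vacuolar transporter gene abc3 fell (log2 −0.82). Without triple mutant replicate 1 and asp1-H397A replicate 3, 5 members rose, and without triple mutant replicate 2, 2 did. Among 9 copper and zinc genes 2 rose and 5 fell (22.2% and 55.6%). The metallothionein gene zym1 had 11.2, 10.2 and 10.7 CPM in the triple mutant, against 38.8, 35.9 and 38.1 CPM in ssu72-C13S (log2 −1.81). The zinc transporter gene zrt1 had 197, 225 and 223 CPM in the triple mutant, against 496, 544 and 379 CPM in ssu72-C13S, its ssu72-C13S libraries spreading widely but all above the triple mutant (log2 −1.14, SE 0.177). adh4 (log2 −0.61) and ctr6 (log2 −0.52) were lower. Of 8 thiamine genes tested, of 11 listed, 3 rose and 1 fell (37.5% and 12.5%), with thi9, for a thiamine transporter, at log2 0.96, the phosphatase gene pho4 at 0.65 and the activator gene thi1 at 0.39.

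Genes of the cell surface came next. Of 16 adhesin genes and regulators tested, of 18 listed, 8 rose and 4 fell. After pfl9, the largest increases were in mbx2, for a transcription factor that activates flocculation genes, at 57.7, 68.3 and 59.3 CPM in the triple mutant, against 16.5, 16.96 and 17.96 CPM in ssu72-C13S (log2 1.85, SE 0.0932, adjusted p 2.43e-09), and in the flocculin gene pfl3, at 495, 640.5 and 506 CPM in the triple mutant, against 169, 175 and 184 CPM in ssu72-C13S (log2 1.64). gsf2, for the dominant flocculin, rose (log2 0.73), while mam3, for an adhesin of mating, fell (log2 −0.69) and pfl7, at low levels, fell most (0.774 CPM in the triple mutant, against 5.498 CPM in ssu72-C13S; log2 −2.84; chosen after its values were seen). Leaving out triple mutant replicate 2 or ssu72-C13S replicate 1 or 2 left 2 lower members. Of 18 cell wall genes 2 rose and 10 fell (55.6% lower), with chs2 (log2 −0.90) and the glucanosyltransferase genes gas2 (log2 −0.66) and gas5 (log2 −0.58) the lowest and chs1 the highest. Without triple mutant replicate 1, 4 rose and 8 fell. Of the 10 genes of the cell separation list 4 fell, with adg3 (log2 −0.55) and cfh4 (log2 −0.46) the lowest, and 2 fell without triple mutant replicate 2 or ssu72-C13S replicate 2.

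Genes of mating are known to be low in vegetative cells. Together 23 of them took 677 to 743 CPM in the triple mutant libraries and 676 to 690 CPM in the ssu72-C13S libraries. The series holds no library of mating cells to compare with, so these sums cannot check the label. Of these 23 mating genes, all tested, 9 rose and 7 fell (39.1% and 30.4%, beside 28.8% and 27.5% of all genes tested). None changed by 2-fold or more, and 4 fell without triple mutant replicate 2 or ssu72-C13S replicate 3. The pheromone precursor gene mfm2 had 50.01, 43.6 and 58.7 CPM in the triple mutant, against 32.01, 28.9 and 27.9 CPM in ssu72-C13S (log2 0.78), and mei2, the switch gene of meiosis, 19.7, 20.4 and 22.7 CPM in the triple mutant, against 10.7, 13.7 and 12.96 CPM in ssu72-C13S (log2 0.75). rgs1, for a regulator of pheromone signalling, rose too (log2 0.78), while mam3, named above, fell (log2 −0.69). Among 18 genes of the G1/S transition and histones 2 rose and 4 fell (11.1% and 22.2%, both below the shares over all genes tested). pht1, for the variant histone H2A.Z (log2 0.70), and htb1, for histone H2B (log2 0.33), were higher. mik1 (log2 −0.64) and the ribonucleotide reductase gene cdc22 (log2 −0.53) were lower. The number lower was 8 under upper-quartile scaling and 14 with the A content trend removed. Of 14 sterol genes tested, of 15 listed, 4 rose and 4 fell (28.6% each way, near the shares over all genes tested), with erg31 (log2 −0.64), erg6 (log2 −0.57) and erg11 (log2 −0.46) lower and erg32 (log2 0.43) higher; 2 rose and 8 fell with the A content trend removed, and 2 rose without triple mutant replicate 2 or 3 or ssu72-C13S replicate 3.

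The series also holds asp1-H397A in the wild-type background, which allows the change described above to be set against that of asp1-H397A over WT, a pair that shares no library with it. The difference between the changes contains any effect of the aps1 deletion, which only the triple mutant carries. Between asp1-H397A and WT 2747 genes differed (44.4%), with 25.8% of all genes tested higher in asp1-H397A and 18.6% lower. Of the 250 genes higher by 2-fold or more in the triple mutant than in ssu72-C13S, 157 (62.8%) were also higher in asp1-H397A than in WT at the threshold, 11 (4.40%) were lower and 82 did not pass. Of the 515 genes lower by 2-fold or more, 280 (54.4%) were also lower, 32 (6.21%) were higher and 203 did not pass. The difference itself passed the threshold for 2591 genes (41.9%), positive for 1241 (20.1%) and negative for 1350 (21.8%). Without asp1-H397A replicate 3 the positive differences numbered 1867, and without triple mutant replicate 1 they numbered 1172.

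pho1, pho84 and tgp1 changed more in the ssu72-C13S background, and prt2 changed less. pho1 had 13220, 13540 and 10810 CPM in asp1-H397A, against 2107, 2054 and 2189 CPM in WT, with log2 fold changes of 5.89 in the ssu72-C13S background and 2.56 in WT (difference log2 3.33, SE 0.159, adjusted p 2.36e-08). Its level was thus higher in the triple mutant than in asp1-H397A and lower in ssu72-C13S than in WT, as the plot of levels by library shows. pho84 had 4675, 4891 and 3920 CPM in asp1-H397A, against 992, 1038 and 1066 CPM in WT (difference log2 2.60, SE 0.14, adjusted p 3.36e-08), and tgp1 424, 416 and 357 CPM in asp1-H397A, against 19.9, 18.3 and 18.6 CPM in WT (difference log2 1.597, SE 0.124, adjusted p 6.58e-07). prt2 had 11.3, 12.1 and 12.2 CPM in asp1-H397A, against 33.7, 32.5 and 32.1 CPM in WT, with log2 fold changes of −0.81 in the ssu72-C13S background and −1.46 in WT (difference log2 0.65, SE 0.107, adjusted p 0.000336). pho7, which was not called in the triple mutant, was higher in asp1-H397A than in WT (log2 0.34, adjusted p 0.00281; difference log2 −0.47, SE 0.108, adjusted p 0.00369). csk1 was lower in both backgrounds (log2 −0.52 and −0.65; adjusted p of the difference 0.572). Outside the phosphate list, ecl3 had 41.4, 41.2 and 33.5 CPM in asp1-H397A, against 5.43, 6.16 and 5.704 CPM in WT (difference log2 2.69, SE 0.224, adjusted p 1.21e-06). SPBPB2B2.06c, by contrast, had 165, 157 and 148 CPM in asp1-H397A, against 11.5, 14.1 and 13.1 CPM in WT, with changes of 3.91 in the ssu72-C13S background and 3.61 in WT (difference log2 0.30, SE 0.116, adjusted p 0.0496).

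The respiratory, ribosomal and stress lists also changed more in the ssu72-C13S background. The ssu72-C13S level from which they changed itself lay away from WT. The median log2 fold change of ssu72-C13S over WT was −1.12 for the respiratory list, −0.29 for ribosomal proteins and 0.40 for core stress genes. cyt1 averaged 171.6 CPM in ssu72-C13S, 820.5 CPM in the triple mutant and 606.5 CPM in WT. gst2 averaged 849.7 CPM in ssu72-C13S, 175 CPM in the triple mutant and 93.6 CPM in WT. In the respiratory list the difference was positive and past the threshold for 21 of 24 genes and negative for 0, with a median change of 1.08 in the triple mutant over ssu72-C13S and 0.23 in asp1-H397A over WT. cyt1 had 989, 954 and 762 CPM in asp1-H397A, against 627, 605 and 587 CPM in WT (difference log2 1.69, SE 0.134, adjusted p 8.16e-07). For ribosomal proteins it was positive for 82 of 138 genes and negative for 0, with medians, in the same order, of 0.34 and 0.061, and for ribosome biogenesis for 14 of 21 and 0, with gar2 at 541, 570.2 and 554 CPM in asp1-H397A, against 528, 539 and 526 CPM in WT (difference log2 1.64, SE 0.0876, adjusted p 3.36e-08). In the core stress list it was negative for 15 of 21 genes and positive for 0, with medians of −0.99 and 0.013. gst2 had 103, 129 and 99.03 CPM in asp1-H397A, against 100.5, 89.4 and 91.03 CPM in WT, hardly apart (difference log2 −2.52, SE 0.142, adjusted p 5.15e-08). Heat shock genes had a negative difference in 11 of 14 and a positive one in 2, and hsp104 stood at 85.3, 91.4 and 89.9 CPM in asp1-H397A, against 77.7, 87.7 and 85.2 CPM in WT (difference log2 −2.01, SE 0.106, adjusted p 3.36e-08). Not all named stress genes were as little changed in asp1-H397A over WT as gst2 and hsp104. There hsp9 (log2 −1.82), srx1 (log2 −0.67), ssa1 (log2 −0.63) and hsp16 (log2 −0.40) fell past the threshold, each by less than in the ssu72-C13S background. mas5 rose there (log2 0.32). Glycolysis genes did not share this pattern as a list, with medians of 0.70 and 0.75. The difference was positive for 3 of 17 and negative for 4, beside 20.1% and 21.8% of all genes tested. Among the positive ones were gpd3 (difference log2 0.96, adjusted p 0.000272) and pdc101 (difference log2 1.06, adjusted p 3.44e-05). eno101 changed by log2 1.55 in asp1-H397A over WT (difference 0.09, adjusted p 0.548).

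Some genes changed in opposite directions in the backgrounds. fip1 was lower where asp1-H397A was set against WT, at 15.4, 16.2 and 14.6 CPM in asp1-H397A, against 31.4, 34.2 and 33.4 CPM in WT (log2 −1.10), and higher in the triple mutant (difference log2 2.47, SE 0.176, adjusted p 3.49e-07). fio1 did likewise, at 3.12, 3.204 and 2.78 CPM in asp1-H397A, against 6.07, 6.02 and 7.18 CPM in WT (difference log2 2.21, SE 0.194, adjusted p 1.91e-06). mei2 had 48.6, 42.8 and 39.1 CPM in asp1-H397A, against 78.99, 67.7 and 65.7 CPM in WT (difference log2 1.45, SE 0.165, adjusted p 1.67e-05). gdt1 was higher there, at 3.597, 3.77 and 2.26 CPM in asp1-H397A, against 0.427, 1.06 and 0.543 CPM in WT, and far lower in the triple mutant than in ssu72-C13S (difference log2 −6.51, SE 0.367, adjusted p 5.15e-08). SPAC27D7.09c behaved in the same way with 60.1, 63.7 and 50.7 CPM in asp1-H397A, against 26.3, 25.1 and 27.1 CPM in WT (difference log2 −3.24, SE 0.145, adjusted p 1.53e-08). For gdt1 and SPAC27D7.09c the ssu72-C13S libraries held the highest levels of all 4 genotypes, at 127, 125 and 119.9 CPM and 396, 428 and 435 CPM. Among the remaining lists the difference was negative for 12 of 16 nitrogen genes and positive for 1, negative for 14 of 18 cell wall genes and positive for 1, and negative for 11 of 16 adhesin genes and positive for 2. It was negative for 10 of 14 sterol genes and 9 of 10 cell separation genes and positive for 0 in either list, beside 21.8% negative and 20.1% positive of all genes tested.

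**Figure D4:**
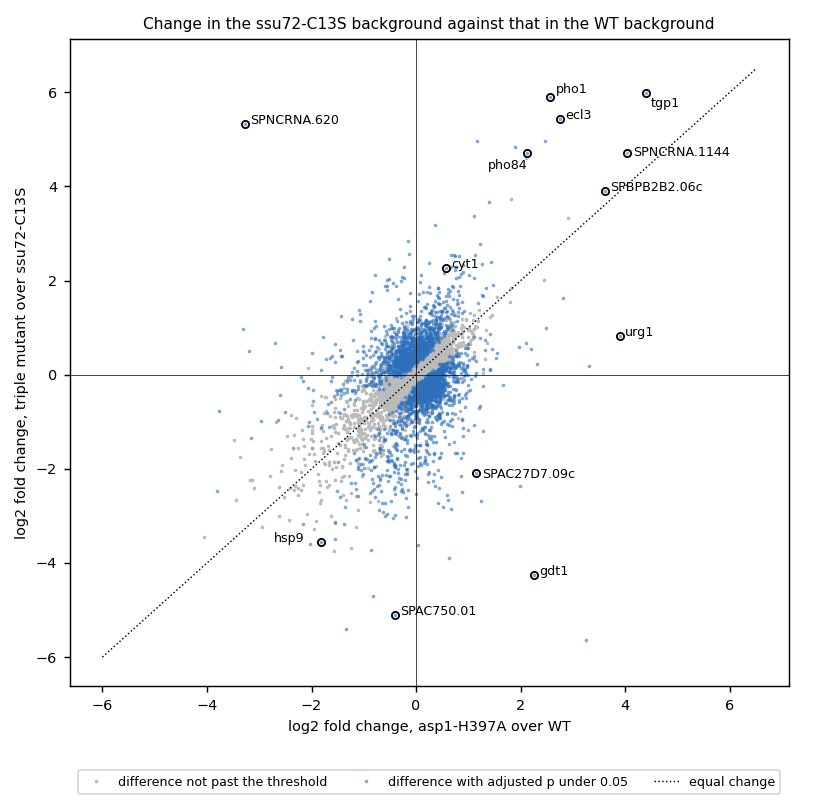
Log2 fold change of the triple mutant over ssu72-C13S (vertical axis) against that of asp1-H397A over WT (horizontal axis) for 6189 genes. The dotted line marks equal change, and blue points are the 2591 genes whose changes differed past the threshold; pho1 lies at 5.89 and 2.56, gdt1 at −4.26 and 2.25.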

How the data were processed

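Raw counts for each gene, 1 column for each library, were deposited by the authors; the columns carry the names the labels give, and replicates were not pooled. The submitters' processing notes name HISAT2 2.1.0, SAMtools, HTSeq 0.10.0, DESeq2 and build ASM294v2; the strand setting of the counting is not given in the sources used here. Of 6987 rows, 1 was a repeated identifier with 0 counts, which was dropped; 320 genes had 0 counts throughout, and 0 columns were left unused. Gene names came from the RefSeq annotation on ASM294v3 (6833 by locus tag, 13 by synonym, 140 unmatched), used for names, order, overlap and base composition only, since the builds differ; no coordinates or sequences are given.

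Genes were filtered with edgeR 4.0.16 (filterByExpr, minimum count 10), scaled by TMM and fitted over all 12 libraries by genotype by quasi-likelihood (glmQLFit, legacy option; R 4.3.3). Adjustment of p-values was by Benjamini-Hochberg over 6189 genes, threshold 0.05; the 2-fold limit was applied to the fitted value. The SE is the log2 value divided by the square root of F. No 2 libraries agreed within sampling noise (chi-square per gene 3.18 or more). The members, gene lists and tests were chosen with earlier results of these data known. Named were the altered and phosphate genes, the 12 largest changes each way (mean of 5 CPM or more, no overlap), up to 4 called and 2 uncalled genes per list, the 5 largest differences between backgrounds each way and 3 neighbours on each side of altered loci; not all are printed, and 1 gene is not reported here. Counts simulated for triple mutant over ssu72-C13S (6150 genes, 200 changed) gave 180 recovered, 54 of 67 at 1.5-fold and 63 of 66 at 4-fold, with 4 false calls. DESeq2 1.42.0 gave 181 and 12. For the difference between backgrounds edgeR recovered 155 with 13 false calls, and DESeq2 160 with 29. The simulated counts held no trend on A content and far fewer changed genes than were called in the data. They therefore do not give the rate of false calls in the data. Alternatives tried were upper-quartile and RLE scaling, the DESeq2 Wald test, other count filters, the 6 libraries alone, a replicate block, robust empirical Bayes, removal of a lowess trend on A content (6169 genes, 99.7%) and leaving out libraries.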

Additional observations from a re-analysis of the deposited data

Results flagged for a closer look

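The change that came with asp1-H397A and the aps1 deletion in the ssu72-C13S background differed from the change that came with asp1-H397A in WT for 2591 genes by the test of the difference itself (edgeR, adjusted over 6189 genes). The genes with the largest differences among those at 5 CPM or more with no overlap between triple mutant and ssu72-C13S are given here as values on the log2 scale, a positive value meaning a higher change in the ssu72-C13S background. The positive ones were SPNCRNA.620 (log2 8.61, SE 0.533, adjusted p 1.12e-07), pho1 (3.33), SPNCRNA.944 (2.83), ecl3 (2.69) and pho84 (2.60). The negative ones were gdt1 (−6.51), SPAC750.01 (−4.70), SPNCRNA.1298 (−3.33), SPAC27D7.09c (−3.24) and urg1 (−3.08).

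SPNCRNA.620 had 0.173, 0.0406 and 0.238 CPM in asp1-H397A, against 1.28, 1.58 and 1.67 CPM in WT, levels that rest on few counts, in asp1-H397A at or near the limit that a count of 0 allows, so that the fitted size depends on the prior count; without ssu72-C13S replicate 3 its difference was 9.24. urg1 had 872, 922 and 761 CPM in asp1-H397A, against 64.5, 44.96 and 61.9 CPM in WT, a larger increase than in the triple mutant over ssu72-C13S. SPNCRNA.944 had 4.51, 5.15 and 5.72 CPM in asp1-H397A, against 3.81, 4.08 and 4.15 CPM in WT, and SPNCRNA.1298 5.55, 5.64 and 5.64 CPM in asp1-H397A, against 4.42, 3.62 and 3.73 CPM in WT. For SPAC750.01, at 0.91, 0.73 and 0.913 CPM in asp1-H397A, against 1.16, 0.844 and 1.397 CPM in WT, the difference was −2.92 without ssu72-C13S replicate 1, and it no longer passed the threshold without asp1-H397A replicate 3 (log2 −4.65, adjusted p 0.0555) or without triple mutant replicate 1 and asp1-H397A replicate 3 together (log2 −4.51, adjusted p 0.0882).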

How the results depend on the processing

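The count of genes called between triple mutant and ssu72-C13S lay between 3030 and 4361 over all alternatives, and 3030 to 3451 when 1 library was left out; 85.2% to 99.8% of the genes called in the 12-library fit were called again in each, 0 in the opposite direction. It was 3468 with RLE scaling, 3506 with DESeq2, 3623 with the 6 libraries alone and 4361 without triple mutant replicate 1 and asp1-H397A replicate 3. With a mean count of 50 or more, fewer genes were tested and 502 genes changed by 2-fold or more, 304 of them lower; leaving out 1 library gave 736 to 791. The positive differences between backgrounds numbered 2023 without triple mutant replicate 1 and asp1-H397A replicate 3 and 1040 to 1867 when 1 library was left out, the cause of which was not tested. Over 2654 values of 163 named genes under the alternatives, 2619 kept direction and side of the threshold, 5 lost the call (hos2 under upper-quartile scaling and without triple mutant replicate 2 or ssu72-C13S replicate 1, and SPAC750.01 as given above), 30 gained it and 0 reversed. The labels do not say whether a replicate number marks a shared batch. Deviations of same-numbered triple mutant and ssu72-C13S libraries had correlations of −0.0476, −0.0111 and −0.0926. In the other pairs of genotypes same-numbered libraries ranged from −0.430 (triple mutant and asp1-H397A, replicate 1) to 0.321 (the same genotypes, replicate 2). Triple mutant replicate 1 and asp1-H397A replicate 3 had 0.638. These values cannot exclude a shared batch, and no library pairing is implied. With the number as a replicate block 3398 genes were called, 1739 higher and 1659 lower, and 2453 differed between backgrounds. Non-coding RNAs and arm-end genes at a few counts are limited by depth.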

Other observations

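Genes at the very ends of chromosome arms changed strongly at levels too low for the 5 CPM limit, and the genes named here were chosen once their values were known. The helicase-like genes tlh1 and tlh2, the outermost annotated genes of an arm of chromosomes I and II, are near-identical copies, so reads of either are uncertain. tlh1 had 0.0845, 0.215 and 0.0989 CPM in the triple mutant, against 6.18, 5.401 and 6.16 CPM in ssu72-C13S (log2 −5.41, SE 0.367, adjusted p 3.72e-08), with 0.13, 0.122 and 0.556 CPM in asp1-H397A, against 0.762, 0.809 and 0.504 CPM in WT. tlh2 had 0.465, 0.387 and 0.148 CPM in the triple mutant, against 8.89, 8.34 and 9.68 CPM in ssu72-C13S (log2 −4.69, SE 0.273, adjusted p 8.38e-09), with 0.347, 0.446 and 0.913 CPM in asp1-H397A, against 1.13, 1.02 and 0.892 CPM in WT. Next to gdt1, SPAC186.06 stood at 0.127, 0.043 and 0.198 CPM in the triple mutant, against 6.07, 5.80 and 6.55 CPM in ssu72-C13S, and SPAC186.04c at 0.211, 0.043 and 0.198 CPM in the triple mutant, against 1.99, 2.32 and 2.52 CPM in ssu72-C13S, so that 3 genes adjacent in annotation order were lower. For the neighbours of gdt1 the triple mutant levels rest on a few counts per library. Near another end of chromosome I, SPAC212.12 went the other way, with 3.63, 2.93 and 2.97 CPM in the triple mutant, against 0.172, 0.0725 and 0.072 CPM in ssu72-C13S and 4.33, 4.26 and 6.04 CPM in asp1-H397A, against 1.34, 1.51 and 1.05 CPM in WT, the ssu72-C13S level being close to the limit that a count of 0 allows. The non-coding RNA SPNCRNA.1156, not near an end, also rose, at 5.92, 8.52 and 7.47 CPM in the triple mutant, against 0.892, 0.616 and 0.576 CPM in ssu72-C13S (log2 3.38, SE 0.206, adjusted p 1.29e-08).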
